A study of Mus musculus with 6 samples.

Results

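The genes described here are the serpins, the kallikrein-related peptidases and the genes of plasminogen activation and blood clotting, 37 of the 13912 genes measured. They were chosen by symbol: every gene whose symbol starts with Serpin, except the collagen chaperone gene Serpinh1, every gene whose symbol is Klk followed by a number, and 13 named genes from Plau to Pros1. In the GENCODE M21 mouse annotation 117 genes met this rule, and the measured ones were 21 of 67 serpins, 3 of 37 kallikreins and all 13 named genes. The others were not analysed here.

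RNA was sequenced from 4T1-Luc2-RFP cells, a BALB/c mammary carcinoma line that carries luciferase and a red fluorescent protein, in 2 groups of 3 libraries. Tumour libraries 1, 2 and 3 came from cells that were FACS-isolated from MIND tumours of the mammary glands, and their titles begin with Right. Cultured libraries 1, 2 and 3 came from the same line grown in culture and not injected, and are not labelled as sorted, so sorting and growth in the gland cannot be told apart. The labels do not give the sorting gate, the age of the mice, whether animals were pooled, or whether each library is from its own animal or its own culture. What the p-values measure is therefore the spread among these 6 libraries alone, and part of it could be technical.

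Serpins are protease inhibitors that offer a bait loop to a target protease and trap it in a covalent complex once the loop is cut; a few have lost this activity. Urokinase and tissue-type plasminogen activator cut plasminogen to plasmin, which dissolves fibrin and degrades matrix, and both are held in check by serpins. Clotting starts when tissue factor binds factor VII, runs through factors X and V to thrombin and fibrin, and is limited by thrombomodulin, the protein C receptor and the tissue factor pathway inhibitors. In tumours, urokinase, its receptor and tissue factor are known for roles in invasion and metastasis.

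The libraries held 35448588 to 41469090 reads. Markers of host cells were present in the tumour libraries: the summed level of 12 macrophage genes was 6035 to 8897 CPM (counts scaled to the library total) in tumour libraries and 28.0 to 39.4 CPM in cultured libraries, with all 12 higher. For 9 fibroblast genes the summed level was 6242 to 8050 CPM in tumour libraries and 23.5 to 51.5 CPM in cultured libraries, again with all 9 higher. Most of the cultured sum was Pdgfra, with 21.9 to 48.2 CPM in cultured libraries and 59.7 to 77.8 CPM in tumour libraries. The 8 of 9 neutrophil genes measured were all higher and summed to 1331 to 3915 CPM in tumour libraries and 85.5 to 100.5 CPM in cultured libraries, and tumour library 2 was the lowest of its group. Endothelial genes were higher in 7 of 8 cases and summed to 104.8 to 154.2 CPM in tumour libraries and 9.43 to 13.1 CPM in cultured libraries. Most of that cultured sum was Egfl7, with 8.67 to 12.8 CPM in cultured libraries and 9.87 to 10.6 CPM in tumour libraries. Of 11 platelet genes 4 were measured, 2 of them higher, at 40.1 to 81.5 CPM in tumour libraries and 2.70 to 4.06 CPM in cultured libraries. Within that list Pf4, which macrophages can also express, had 34.1 to 68.7 CPM in tumour libraries and at most 0.0287 CPM in cultured libraries. Ppbp had 2.93 to 8.97 CPM in tumour libraries and 1.10 to 2.38 CPM in cultured libraries. For Itga2b the levels were 2.66 to 3.53 CPM and 0.603 to 2.27 CPM, and for Gp1ba 0.343 to 0.705 CPM and 0.155 to 0.258 CPM. None of 5 liver genes was among the genes measured. The 16 epithelial genes measured, such as Epcam and Krt8, summed to 2744 to 3189 CPM in tumour libraries and 2938 to 3727 CPM in cultured libraries, with 1 higher and 8 lower. Their median was 4.49, 4.74 and 4.30 log2 CPM in tumour libraries, below the 5.58, 5.82 and 5.26 of cultured libraries. Among them Cdh1 had 202.4 to 252.3 CPM in tumour libraries and 423.2 to 442.4 CPM in cultured libraries. The part of these cells in the results below was not tested, and in bulk RNA fewer cells of a type and less RNA per cell cannot be told apart.

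Most of the 37 genes had higher levels in the sorted tumour libraries. Adjusted over all genes (limma, Benjamini-Hochberg, 0.05), 27 rose, 3 fell (Klk10, Procr and Serpinb9c) and 7 did not pass. Of all 13912 genes, 29.5% rose and 18.8% fell, 48.2% in either direction. The groups did not overlap in 30 of the 37 genes, against 59.8% of all genes. The median log2 change, tumour minus cultured, was 3.95 for the 37 genes and 0.08 for all genes. These counts are in part fixed by which genes are in the table, since no gene in it had fewer than 61 reads over the 6 libraries. A total of 17 of the 37 genes had fewer than 61 reads over the 3 cultured libraries, and 16 of them rose. Among the other 20, 11 rose, 3 fell and 6 did not pass, and among all 11696 genes with at least 61 cultured reads 18.9% rose and 22.3% fell. Among the 3 that fell, Serpinb9c had 0 tumour reads and was in the table only through its cultured reads. All changes below are on the log2(CPM) scale with 0.5 reads added, averaged over libraries, so for genes with few reads they depend on the added reads and can differ from the ratio of mean CPM in either direction.

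**Figure D1:**
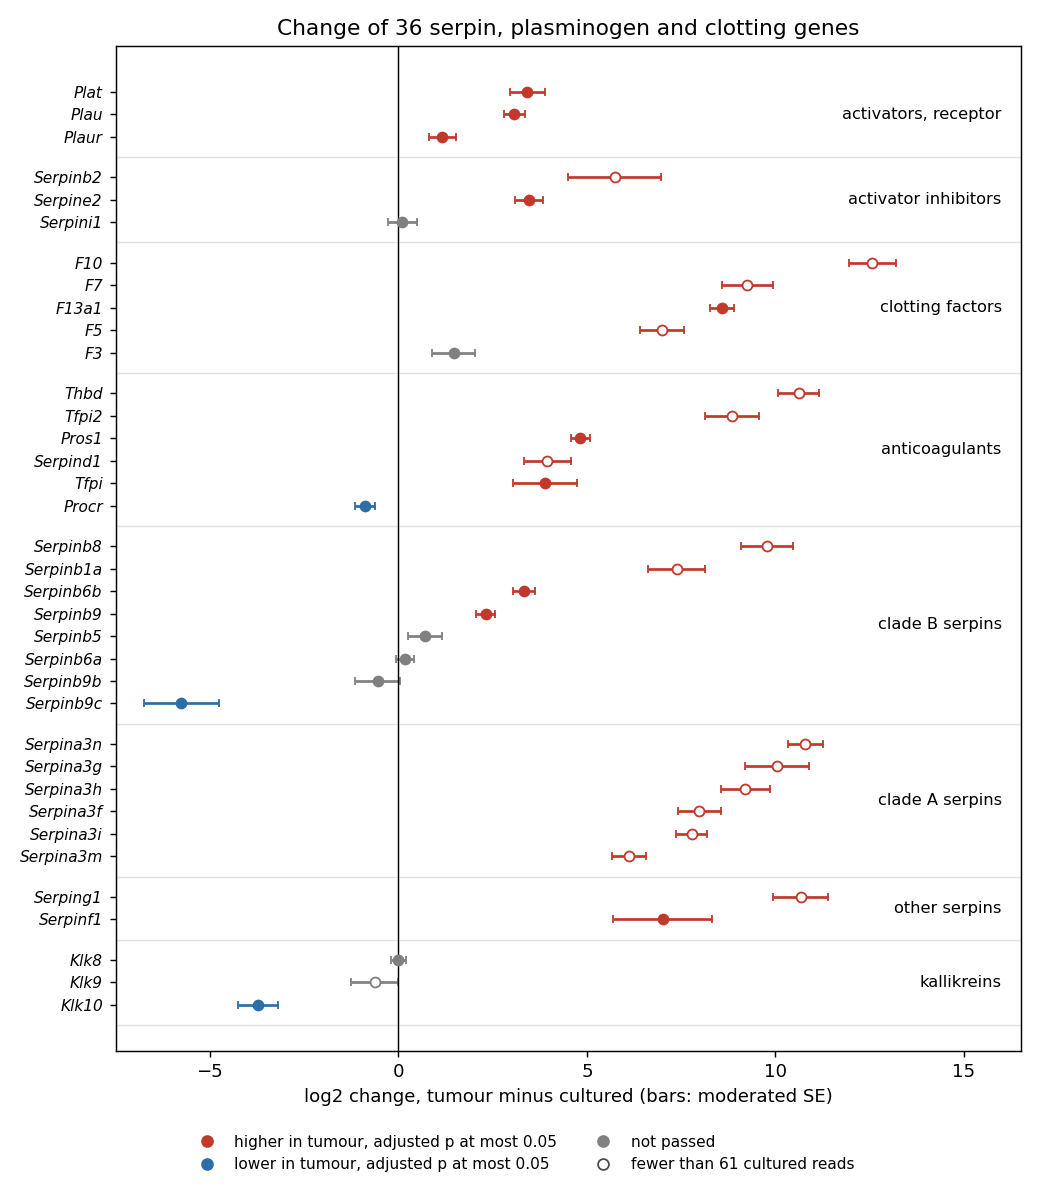
Log2 change (tumour minus cultured, x axis) of 36 of the 37 genes, grouped by role, with limma's moderated standard error as bars. Red points rose, blue points fell and grey points did not pass at an adjusted p of 0.05; open points had fewer than 61 cultured reads, and all 6 clade A serpins are open points to the right of 0 while Klk10, Procr and Serpinb9c lie to the left.

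The plasminogen activators and their receptor rose, 3 of 3, where 29.5% of all genes rose. Plau, which encodes urokinase (chromosome 14, 20836660 to 20843385, plus strand), stood at 9.54, 9.15 and 9.73 log2 CPM in tumour libraries 1, 2 and 3, against 6.47, 5.86 and 6.88 in cultured libraries 1, 2 and 3. The lowest tumour library lay well above the highest cultured library. Its change was 3.07 (SE 0.28, limma adjusted p = 6.40e-05), a linear fold of 8.40. Plat, which encodes tissue-type plasminogen activator (chromosome 8, 22757727 to 22782844), stood at 5.47, 5.39 and 6.03 log2 CPM in tumour libraries, against 2.43, 3.06 and 1.15 in cultured libraries. Cultured library 3 was the low one, and the groups did not overlap, with a change of 3.42 (SE 0.46, limma adjusted p = 0.000609).

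Plaur, the membrane-anchored receptor that holds urokinase at the cell surface (chromosome 7, 24462484 to 24475968), moved less. It stood at 9.21, 8.14 and 8.58 log2 CPM in tumour libraries and at 7.52, 6.87 and 8.03 in cultured libraries. The lowest tumour library, 2, and the highest cultured library, 3, were close without overlapping. The change was 1.17 (SE 0.35, limma adjusted p = 0.0277), and it did not pass with any 1 of 4 libraries left out: adjusted p was 0.0922 without tumour library 1, 0.070 without tumour library 3, 0.0664 without cultured library 1 and 0.0768 without cultured library 2. With libraries centred on their medians it did not pass either (change 0.95, adjusted p = 0.0587).

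Of 4 inhibitors of these activators 3 rose, where 29.5% of all genes rose. Among the 3, Serpinb2, with 49 cultured reads, was in the table only through its tumour reads. Serpine2, protease nexin 1, which inhibits thrombin and urokinase (chromosome 1, 79794197 to 79861180), had 2.91, 3.55 and 3.87 log2 CPM in tumour libraries and -0.44, -0.13 and 0.51 in cultured libraries. These groups did not overlap, and the change was 3.46 (SE 0.38, limma adjusted p = 0.000176).

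Serpinb2, plasminogen activator inhibitor 2, a mostly intracellular serpin (chromosome 1, 107511423 to 107535478, overlapping Serpinb10 in the annotation), varied widely within each group. It had 3.61, 1.89 and 3.90 log2 CPM in tumour libraries, with library 2 lowest, against -4.83, -3.33 and 0.35 in cultured libraries. Of its 49 cultured reads 44 were in cultured library 3. The change was 5.74 (SE 1.24, limma adjusted p = 0.00663). It was 7.21 without cultured library 3, 4.62 without cultured library 1 and 6.36 without tumour library 2. Serpini1, neuroserpin, an inhibitor of tissue-type activator, had means of -0.16 in tumour libraries and -0.27 in cultured libraries and did not pass (change 0.11, limma adjusted p = 0.838). After quantile normalization Serpini1 passed as lower (-3.14, adjusted p = 0.000433).

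**Figure D2:**
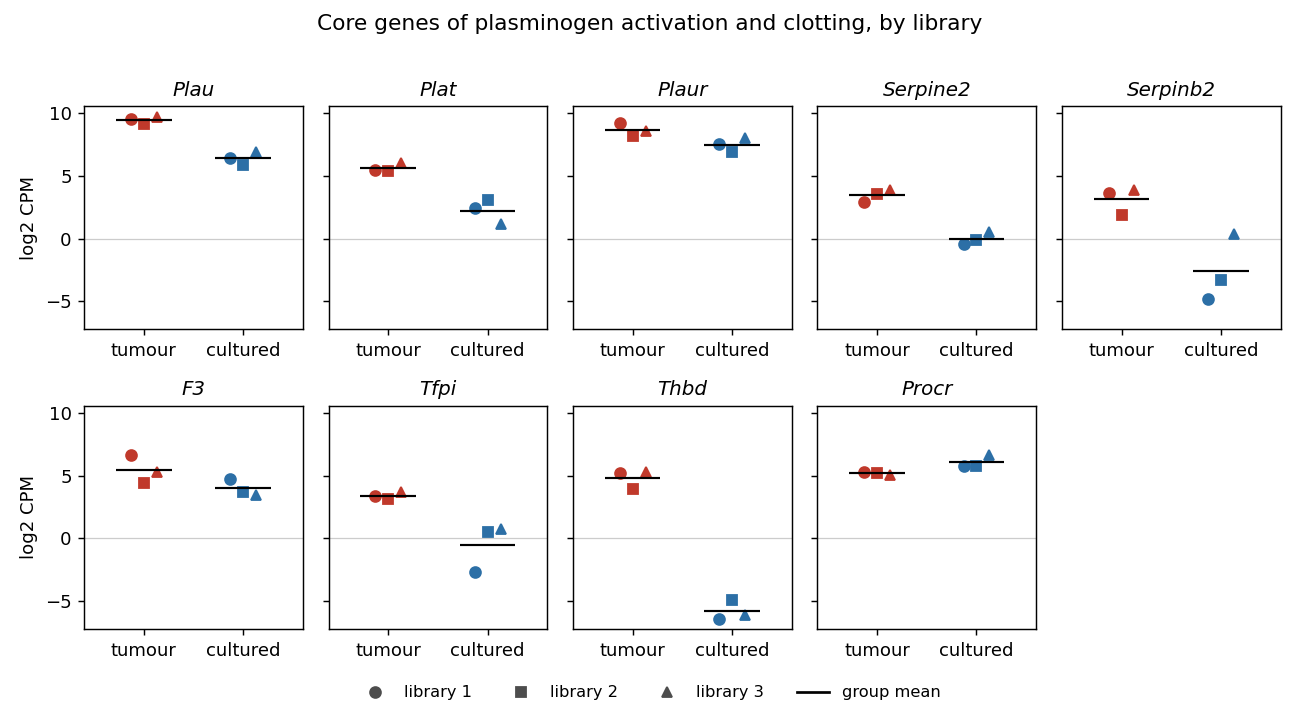
Log2 CPM (y axis) of 9 core genes in each of the 3 tumour libraries (red, left) and 3 cultured libraries (blue, right), with the group mean as a line. Groups are apart for all but F3, and Procr is the one gene with the tumour libraries below the cultured ones.

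A ratio within a library sets the receptor against the protease, whatever the scaling between libraries. The log2 ratio of Plaur to Plau was -0.33, -1.01 and -1.15 in tumour libraries and 1.05, 1.02 and 1.15 in cultured libraries. All tumour libraries lay below all cultured ones, by 1.90 on average (two-sided exact permutation p = 0.10, the smallest that 3 against 3 can give). It is 1 of 4 pairs compared, chosen after the values were seen, and over the 4 pairs the adjusted p was at least 0.40.

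Per kilobase of annotated exon, Plau had the highest level of the 37 genes in tumour libraries, and that of Plaur was not apart from the next beyond its spread. Plau had 304.3 ± 60.4 CPM per kb in tumour libraries and 37.2 ± 12.7 in cultured libraries (SD, n = 3 each). Plaur had 160.0 ± 60.0 CPM per kb in tumour libraries and 71.5 ± 27.5 in cultured libraries (SD, n = 3 each). In cultured libraries Plaur came first, followed by Serpinb6a, Klk10, Plau and Procr, all within 1 SD of a neighbour in that order.

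Promoter sequence is shown for 4 genes in which a script found the letters of an AP-1 site, the target of FOS and JUN dimers, since Plaur, F3, Procr and Serpinb8 hold it but differ in how they moved. The windows run from 250 bases before to 50 bases after the RefSeq start on GRCm38.p6, written 5′ to 3′, with matches to TGANTCA on either strand in capitals.
Plaur (chr7:24462233-24462532, plus strand): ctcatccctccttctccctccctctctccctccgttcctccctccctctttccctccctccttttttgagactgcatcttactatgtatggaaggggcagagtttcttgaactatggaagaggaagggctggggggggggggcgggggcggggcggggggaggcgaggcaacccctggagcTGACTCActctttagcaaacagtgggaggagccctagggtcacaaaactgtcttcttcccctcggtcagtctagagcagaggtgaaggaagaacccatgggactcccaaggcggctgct
F3 (chr3:121723287-121723586, plus strand): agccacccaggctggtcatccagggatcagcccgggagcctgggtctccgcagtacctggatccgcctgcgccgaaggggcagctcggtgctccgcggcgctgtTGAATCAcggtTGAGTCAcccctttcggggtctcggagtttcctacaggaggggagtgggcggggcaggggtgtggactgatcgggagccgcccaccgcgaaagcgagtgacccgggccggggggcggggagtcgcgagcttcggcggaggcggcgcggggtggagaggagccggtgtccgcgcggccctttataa
Procr (chr2:155750967-155751266, plus strand): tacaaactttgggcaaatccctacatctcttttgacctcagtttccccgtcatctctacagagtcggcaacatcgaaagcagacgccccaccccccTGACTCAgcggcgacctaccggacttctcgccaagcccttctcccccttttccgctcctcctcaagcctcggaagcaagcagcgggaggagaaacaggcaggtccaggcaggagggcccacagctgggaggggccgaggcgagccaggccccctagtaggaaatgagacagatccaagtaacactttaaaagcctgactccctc
Serpinb8 (chr1:107589756-107590055, plus strand): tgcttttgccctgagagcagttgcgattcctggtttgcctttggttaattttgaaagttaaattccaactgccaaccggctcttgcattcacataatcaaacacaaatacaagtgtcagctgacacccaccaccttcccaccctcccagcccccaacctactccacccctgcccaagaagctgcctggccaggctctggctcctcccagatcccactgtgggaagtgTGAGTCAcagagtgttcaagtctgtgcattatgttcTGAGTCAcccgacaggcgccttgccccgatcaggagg
Windows were found for 29 of the 37 genes, 37 windows in all, and 8 of these hold the motif. Among all 32851 RefSeq promoter windows 7.81% do. The 8 include overlapping windows of Serpinb2 that hold the same match. The 7 genes with a match were Serpinb2, Serpinb8, Plaur and Tfpi2, which rose, Procr, which fell, and F3 and Serpinb5, which did not pass. F3 and Serpinb8 each hold it at 2 places. A match is a description of the letters and not a measured binding site.

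Of the clotting factors, 4 rose and tissue factor did not pass, where 29.5% of all genes rose. F10, F7 and F5 had 1, 2 and 8 cultured reads, so their direction as deposited was fixed by their being in the table. F3, tissue factor, which starts clotting on the cell surface (chromosome 3, 121723537 to 121735048), stood at 6.65, 4.40 and 5.28 log2 CPM in tumour libraries, against 4.71, 3.73 and 3.49 in cultured libraries. Tumour library 2 fell below cultured library 1, so the groups overlapped. The change was 1.47 (SE 0.57, limma adjusted p = 0.0658), and without tumour library 2 it was 1.99 and passed (adjusted p = 0.0244). Scaled to the epithelial genes it also passed (2.51, adjusted p = 0.000971). Under that scaling 8890 of the 13912 genes passed as higher, and the median change of all genes was 1.13. Without tumour library 1 the change of F3 was 0.86 (adjusted p = 0.177), and with library weights 1.34 (adjusted p = 0.113).

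F10, the factor X gene, whose product turns prothrombin into thrombin, lies next to F7 on chromosome 8 (13037308 to 13056676 and 13026034 to 13035809). F10 stood at 7.40, 5.57 and 7.29 log2 CPM in tumour libraries, 14096 reads in all, against 1 read in the cultured libraries. Tumour library 2 was the lowest, and still far above culture. The ratio of CPM was 14989 (95% counting interval 2690 to 592090, limma adjusted p = 2.94e-06). F7, the factor VII gene, the partner of tissue factor, had 14.0, 8.22 and 18.1 CPM in tumour libraries and 2 reads in culture, a ratio of 816.7 (95% counting interval 225.7 to 6750). F5, which encodes the cofactor of activated factor X, had 17.3, 3.94 and 12.8 CPM in tumour libraries and 8 reads in culture, with a change of 7.0 (SE 0.58, limma adjusted p = 3.80e-05), or 7.64 without tumour library 2.

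F13a1, which encodes the chain of factor XIII that cross-links fibrin and is expressed by some macrophages (chromosome 13, 36867178 to 37050244), stood at 8.01, 7.78 and 8.66 log2 CPM in tumour libraries and at -0.31, -0.06 and -0.91 in cultured libraries. The groups lay far apart, with a change of 8.58 (SE 0.32, limma adjusted p = 1.00e-06). Macrophage markers summed to at least 6035 CPM in these tumour libraries and at most 39.4 CPM in culture, and their part in this change was not tested. Per kilobase of exon, F10 (45.5 ± 24.4 CPM per kb) and F13a1 (43.6 ± 14.6) did not differ beyond their spread in tumour libraries (SD, n = 3 each).

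The genes that limit clotting rose in 5 of 6 cases and fell in 1, where 29.5% of all genes rose and 18.8% fell. Thbd, Tfpi2 and Serpind1 had 1, 5 and 5 cultured reads, so their direction as deposited was fixed by their being in the table. Thbd, thrombomodulin, the surface receptor that turns thrombin towards protein C (chromosome 2, 148404466 to 148408188), had 5.22, 3.93 and 5.25 log2 CPM in tumour libraries, 3427 reads in all, against 1 read in culture. The ratio was 3644 (95% counting interval 653.6 to 143980, limma adjusted p = 3.41e-06), and tumour library 2 was again the lowest. Procr, the protein C receptor that works beside thrombomodulin (chromosome 2, 155751117 to 155755471), went the other way. It stood at 5.29, 5.18 and 5.04 log2 CPM in tumour libraries, against 5.74, 5.78 and 6.65 in cultured libraries. Each tumour library lay below each cultured one, with a change of -0.89 (SE 0.26, limma adjusted p = 0.0236), and cultured library 3 stood above its group. The call was lost without tumour library 1, 2 or 3 (adjusted p = 0.0529, 0.0671 and 0.0856), and scaled to the epithelial genes the change was 0.16 (adjusted p = 0.702), of the opposite sign.

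Tfpi, which blocks tissue factor with factor VII and factor X (chromosome 2, 84432855 to 84476775), had 3.35, 3.13 and 3.71 log2 CPM in tumour libraries, against -2.71, 0.47 and 0.75 in cultured libraries. Cultured library 1 was far below the others, and the groups did not overlap (change 3.90, SE 0.85, limma adjusted p = 0.00699). Without cultured library 1 the change was 2.79 (adjusted p = 0.000537), and without cultured library 3 it was 4.52. Tfpi2, a related inhibitor of plasmin and of matrix proteases (chromosome 6, 3962595 to 3988919), had 17.2, 15.3 and 18.8 CPM in tumour libraries and 5 reads in culture (change 8.85, SE 0.72, limma adjusted p = 3.35e-05, with 8.03 without cultured library 1 and 9.57 without cultured library 2). The log2 ratio of F3 to Tfpi was 3.29, 1.27 and 1.57 in tumour libraries and 7.42, 3.26 and 2.74 in cultured libraries. It overlapped between the groups (exact permutation p = 0.30).

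Pros1, protein S, a cofactor of protein C and of the pathway inhibitor and a ligand of the TYRO3, AXL and MERTK receptors (chromosome 16, 62854307 to 62929346), had 5.64, 5.54 and 6.06 log2 CPM in tumour libraries, against 1.07, 0.66 and 1.02 in cultured libraries. Both groups were tight and far apart, with a change of 4.83 (SE 0.24, limma adjusted p = 2.88e-06). Serpind1, heparin cofactor II, an inhibitor of thrombin, stayed low, with 93 reads in tumour libraries and 5 in cultured libraries (change 3.95, limma adjusted p = 0.00128). After quantile normalization its change was -0.38 and did not pass.

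Tumour library 2 was low for a subset of these genes. Of the 37 genes, 32 averaged 0 log2 CPM or more over the tumour libraries, and 6 of these (18.8%) were lower in library 2 by at least 1 than the mean of tumour libraries 1 and 3, against 3.07% of all genes at that level. The differences were -1.92 for F5, -1.87 for Serpinb2, -1.77 for F10, -1.56 for F3, -1.31 for Thbd and -1.20 for Serpinb8. For Pros1 the difference was -0.31 and for Plat -0.36. Over the same libraries the median difference was -3.05 for neutrophil markers, -0.32 for macrophage markers and -0.29 for fibroblast markers, whose part in these differences was not tested. The counts of the 37 genes without tumour library 2 were 28 higher and 2 lower.

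**Figure D3:**
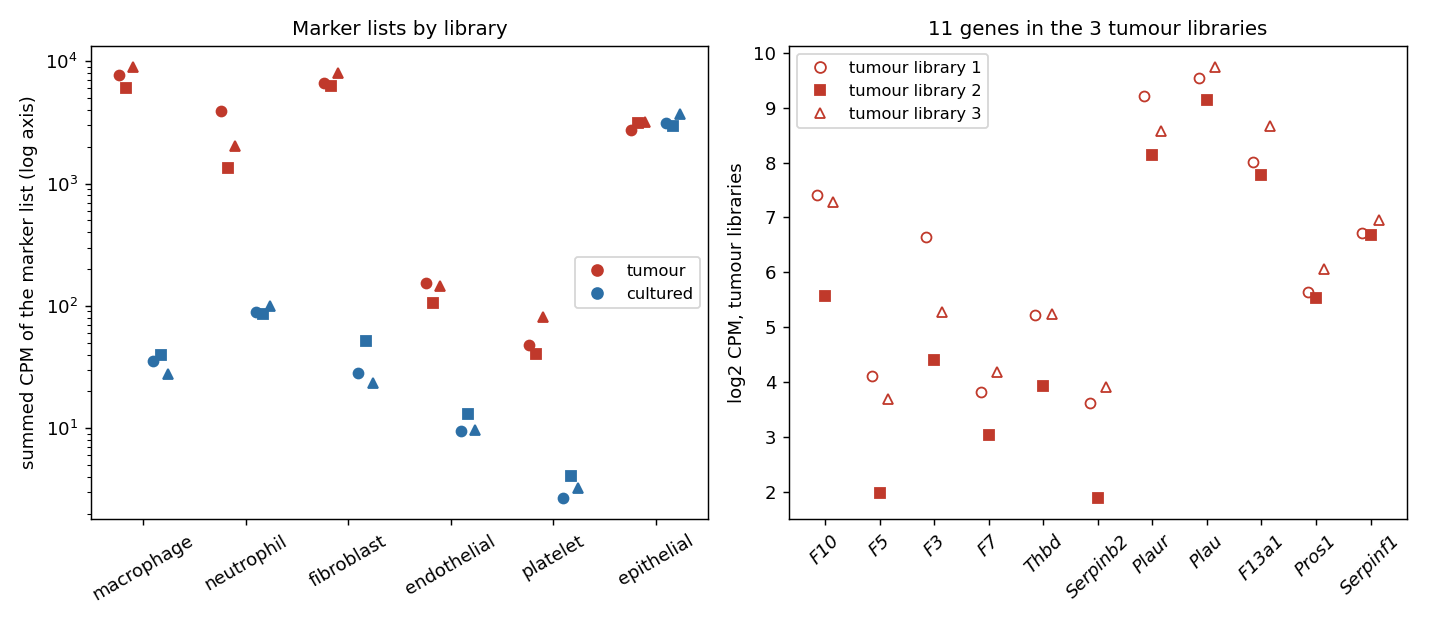
Left, summed CPM of each marker list (log axis) in the tumour libraries (red) and cultured libraries (blue); right, log2 CPM of 11 of the 37 genes in tumour libraries 1 (open circle), 2 (filled square) and 3 (open triangle). Macrophage and fibroblast sums are at least 6035 CPM in every tumour library, and library 2 is low for neutrophil markers and for F10, F5, F3, Thbd and Serpinb2 but nearly level with library 1 for Pros1 and Serpinf1.

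The clade B serpins work mostly inside cells. Of the 8 beyond Serpinb2, 4 rose, 1 fell and 3 did not pass, where 29.5% of all genes rose and 18.8% fell. Serpinb8 and Serpinb1a, with 2 and 5 cultured reads, were in the table only through their tumour reads. Serpinb9, the inhibitor of granzyme B that shields cells from killer lymphocytes (chromosome 13, 33003250 to 33017957), had 5.36, 5.58 and 5.02 log2 CPM in tumour libraries, against 2.69, 3.35 and 2.97 in cultured libraries. All tumour libraries lay above all cultured ones, with a change of 2.31 (SE 0.24, limma adjusted p = 0.00015). Serpinb8, which in humans inhibits furin (chromosome 1, 107590006 to 107610484), had 4.26, 3.41 and 4.95 log2 CPM in tumour libraries and 2 reads in culture. The ratio was 1227 (95% counting interval 339.2 to 10135, limma adjusted p = 1.37e-05).

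Serpinb1a, an inhibitor of neutrophil elastase and cathepsin G, had 745 reads in tumour libraries and 5 in cultured libraries (change 7.38, limma adjusted p = 0.000132, with 6.56 without cultured library 1 and 8.10 without cultured library 2). Serpinb6b had a change of 3.34 (SE 0.29), while its neighbour in the family, Serpinb6a, an inhibitor of cathepsin G, was the most abundant serpin in culture per kilobase of exon, at 53.7 ± 18.3 CPM per kb, and had 59.1 ± 7.15 CPM per kb in tumour libraries (SD, n = 3 each). Serpinb6a did not pass (change 0.18, SE 0.24, limma adjusted p = 0.570), and its sign turned with libraries centred on their medians (-0.04). It passed without cultured library 3 (change 0.45, adjusted p = 0.0326) and scaled to the epithelial genes (1.23, adjusted p = 0.010). Under the epithelial scaling 8890 of the 13912 genes passed as higher, and the median change of all genes was 1.13. Serpinb5, maspin, a serpin of epithelial cells that does not inhibit proteases, had 4.60, 4.72 and 4.28 log2 CPM in tumour libraries, against 2.84, 3.87 and 4.78 in cultured libraries. The groups overlapped because cultured library 3 was high. It did not pass (change 0.70, limma adjusted p = 0.231), and without cultured library 3 it did (1.18, adjusted p = 0.0179), as also with library weights (1.07, adjusted p = 0.0176) and scaled to the epithelial genes (1.75, adjusted p = 0.00476). Without cultured library 1 the change of Serpinb5 was 0.21 (adjusted p = 0.620), and after quantile normalization 0.33 (adjusted p = 0.492).

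Serpinb9c, a mouse gene of the granzyme-inhibitor branch on the same stretch of chromosome 13 (33149275 to 33159742), had 0 reads in each tumour library, against 28, 147 and 5 reads in cultured libraries 1, 2 and 3. Over the groups it was at least 56.4-fold lower in tumour libraries, taking a floor of 3 reads over the group (limma adjusted p = 0.00214). With 0 tumour reads it was in the table only through its cultured reads, so its direction was fixed. Most of its reads came from cultured library 2. Its fitted change was -4.64 without that library and -6.83 without cultured library 3, against -5.75 with all libraries. Serpinb9b, beside Serpinb9, had 137 reads in tumour libraries and 199 in cultured libraries and did not pass (change -0.54, limma adjusted p = 0.481), but it passed as lower after quantile normalization (-3.67, adjusted p = 0.00364) and had a change of 0.50 scaled to the epithelial genes. Serpinb9, Serpinb9b, Serpinb9c and the Serpinb6 pair have close relatives in this cluster, so reads that fit several copies may be missing or misassigned.

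All 6 clade A serpins measured were members of the Serpina3 cluster, the mouse relatives of human antichymotrypsin, which lies on chromosome 12 from 104112724 to 104414329 with 14 annotated genes. All 6 rose and had 0 to 8 reads each in culture, so their direction was fixed by their being in the table. Serpina3g, an interferon-induced intracellular inhibitor of lysosomal cathepsins, stood at 5.91, 5.07 and 5.60 log2 CPM in tumour libraries, against 7, 1 and 0 reads in cultured libraries 1, 2 and 3 (change 10.04, SE 0.84, limma adjusted p = 3.91e-05, with 11.04 without cultured library 1 and 9.24 without cultured library 3). Serpina3n, a secreted acute-phase inhibitor, stood at 3.93, 4.07 and 5.35 log2 CPM in tumour libraries and at 0 reads in all 3 cultured libraries, at least 989.3-fold higher. Tumour library 3 was the highest for Serpina3n and tumour library 1 for Serpina3g. The ratio was 398.8 for Serpina3f (95% counting interval 110.0 to 3299) and 768.3 for Serpina3h (212.3 to 6350), which GENCODE annotates as a transcribed pseudogene. Serpina3i was at least 112.7-fold and Serpina3m at least 36.5-fold higher. These genes are copies within 1 family and Serpina3m overlaps Serpina3k in the annotation, so how their reads were divided is uncertain, and after quantile normalization Serpina3m did not pass (adjusted p = 0.0986).

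The other secreted serpins measured were Serping1 and Serpinf1. Serping1, the C1 inhibitor, which blocks the first proteases of complement as well as plasma kallikrein (chromosome 2, 84765387 to 84775444), had 6.16, 5.94 and 6.87 log2 CPM in tumour libraries, against 4, 3 and 0 reads in cultured libraries (change 10.68, SE 0.73, limma adjusted p = 1.26e-05, and 9.79 without cultured library 3). With 7 cultured reads in all, its direction as deposited was fixed by its being in the table. Serpinf1, pigment epithelium-derived factor, an inhibitor of vessel growth rather than of proteases (chromosome 11, 75409769 to 75422701), had 6.72, 6.69 and 6.96 log2 CPM in tumour libraries, against 1.35, 1.78 and -3.80 in cultured libraries. Cultured library 3 held 2 of its 265 cultured reads, and no library crossed between the groups (change 7.01, SE 1.32, limma adjusted p = 0.00334). Without cultured library 3 its change was 5.23 (adjusted p = 2.41e-06), and without cultured library 2 it was 8.02. Fibroblast markers summed to at least 6242 CPM in these tumour libraries and at most 51.5 CPM in culture, and their part in this change was not tested.

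Of the 3 kallikreins 1 fell and 2 did not pass, where 18.8% of all genes fell. Klk10, Klk9 and Klk8 are neighbours on chromosome 7, in a cluster of 37 annotated genes from 43690418 to 44229618. Klk10 (43781035 to 43785410), a secreted peptidase of epithelia, had 2.32, 1.65 and 1.73 log2 CPM in tumour libraries, against 4.58, 5.41 and 6.86 in cultured libraries. Cultured library 3 was the highest, and even the lowest cultured library exceeded all tumour ones. Its change was -3.72 (SE 0.54, limma adjusted p = 0.000846), or -3.10 without cultured library 3, and scaled to the epithelial genes the change was -2.67 (adjusted p = 0.000804). Klk8, neuropsin, had 9.65, 8.74 and 8.63 CPM in tumour libraries and 8.87, 8.57 and 9.50 CPM in cultured libraries, with a change of 0.00 (SE 0.20, limma adjusted p = 0.989). The direction of Klk8 depended on the scaling: its change was -0.83 after quantile normalization (adjusted p = 0.0102) and 1.05 scaled to the epithelial genes (adjusted p = 0.0135). The median change of all genes under these scalings was -0.32 and 1.13. Klk9 had 36 reads in tumour libraries and 58 in cultured libraries and did not pass (change -0.63, limma adjusted p = 0.428), but it passed as lower after quantile normalization (-4.16, adjusted p = 0.00012) and had a change of 0.41 scaled to the epithelial genes.

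**Figure D4:**
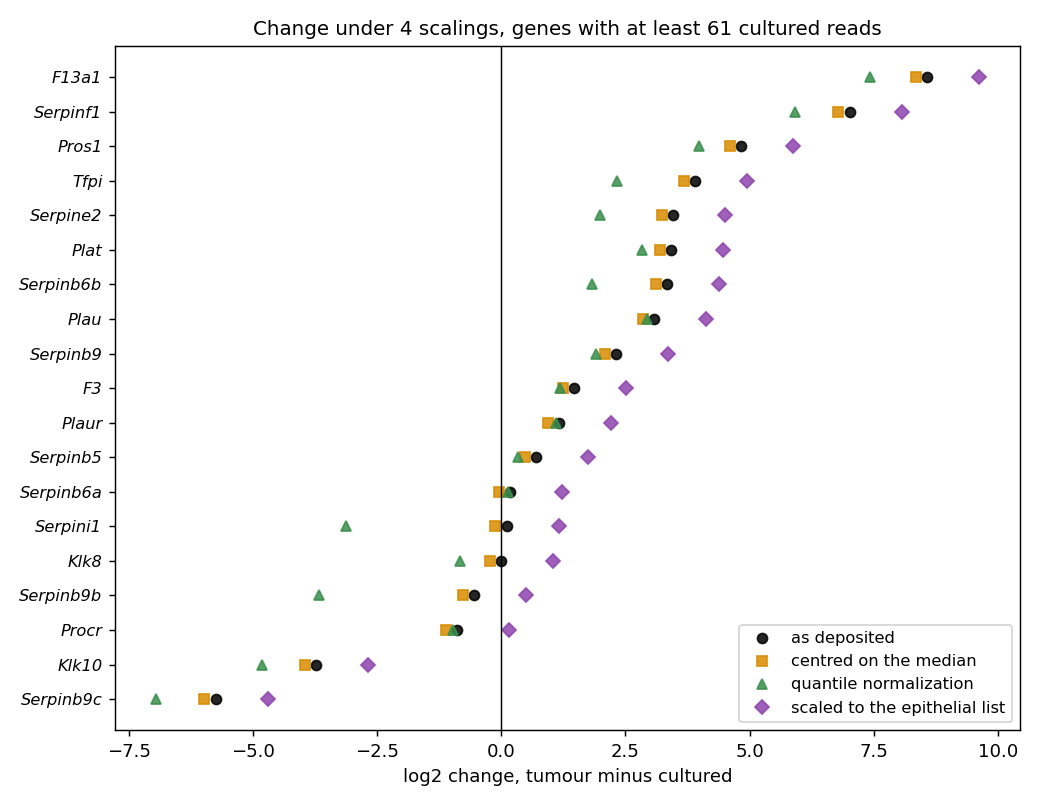
Log2 change (tumour minus cultured, x axis) of 19 of the 20 genes with at least 61 cultured reads, under 4 ways of scaling the libraries. Changes above about 2 keep their sign under all 4, whereas Procr, Klk8, Serpini1, Serpinb6a and Serpinb9b lie on either side of 0.

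A further 86 genes of the same pathways were listed by role, and 54 of them were measured: 35 rose, 3 fell and 16 did not pass, with a median change of 2.29, against 29.5% of all genes higher and 18.8% lower. As among the 37 genes, part of this follows from which genes are in the table: of the 28 with at least 61 cultured reads, 11 rose, 3 fell and 14 did not pass, against 18.9% of such genes higher and 22.3% lower. Of 10 genes for binding and uptake of plasminogen and its activators 7 rose. Among them were Mrc2, the collagen receptor that associates with the urokinase receptor (68.0 ± 2.90 CPM in tumour libraries and 0.725 ± 0.281 in cultured libraries, SD, n = 3 each), and Clec3b, tetranectin, which binds plasminogen (change 6.78, SE 0.62). Dpp4, a membrane peptidase, had 0 cultured reads and was at least 354.5-fold higher. Of the 4 protease-activated receptors 3 rose. F2r, the main thrombin receptor, was abundant in both groups, at 150.6 ± 12.2 CPM in tumour libraries and 85.8 ± 6.84 in cultured libraries (SD, n = 3 each, change 0.81, limma adjusted p = 0.00215). F2rl2 had 0 cultured reads and was at least 319.7-fold higher, and F2rl3 had 107 reads in tumour libraries and 2 in culture.

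Of 5 other clotting genes measured 4 rose, where 29.5% of all genes rose. These 4 had 2 to 24 cultured reads each, and were in the table only through their tumour reads. Fgl2, a membrane prothrombinase of macrophages, had 132.8 ± 39.5 CPM in tumour libraries (SD, n = 3) and 5 reads in culture. Gas6, the vitamin K-dependent relative of protein S, had 77.2 ± 39.8 CPM in tumour libraries (SD, n = 3) and 2 reads in culture. Vwf, von Willebrand factor of endothelium and platelets, had 470 reads in tumour libraries and 4 in cultured libraries. Of 9 genes for maturation and secretion of clotting factors 4 rose and 5 did not pass. Named by size of change are Ggcx, the carboxylase that makes vitamin K-dependent factors active (23.3 ± 1.16 CPM in tumour libraries and 10.6 ± 0.556 in cultured libraries, SD, n = 3 each), Vkorc1, the enzyme that recycles vitamin K (change 1.37, SE 0.26), and Furin, a proprotein convertase (change 1.79, SE 0.20).

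Membrane-bound and secreted serine proteases and their Kunitz inhibitors split, with 6 of 14 higher, 3 lower and 5 not passing. Of all genes 29.5% rose and 18.8% fell. All but Prss22 of the 6 that rose had 4 to 27 cultured reads each, and were in the table only through their tumour reads. Named by size of change were Tmprss6, matriptase-2 (55.3 ± 13.1 CPM in tumour libraries and 0.195 ± 0.101 in cultured libraries, SD, n = 3 each), Htra3 (40.5 ± 4.84 CPM in tumour libraries and 0.211 ± 0.126 in cultured libraries, SD, n = 3 each) and Hgf, hepatocyte growth factor, with 1109 reads in tumour libraries and 5 in cultured libraries. The 3 that fell, St14, which encodes matriptase, Tmprss11e and Htra1, were named after their values were seen, and had changes of -0.47, -0.48 and -0.97. All 3 calls were lost without tumour library 1, without tumour library 3 and scaled to the epithelial genes. Of 12 protease genes of the granules of cytotoxic cells, mast cells and, for Prtn3, neutrophils, 11 rose and 1, with 70 cultured reads, did not pass. The 11 that rose had 0 to 2 cultured reads each, so their direction was fixed by their being in the table. Their tumour levels stayed low: the 3 with the largest change had 442 reads for Mcpt1, 293 for Tpsab1 and 274 for Gzme over the 3 tumour libraries, against 1, 0 and 0 reads in cultured libraries. Of 6 mast cell markers 4 were measured, summing to 9.15 to 17.8 CPM in tumour libraries and at most 0.0235 CPM in cultured libraries, and of 9 T and NK cell markers 3 were measured, at 4.72 to 7.05 CPM in tumour libraries and 0 reads in cultured libraries.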

How the data were processed

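RNA-seq of 3 tumour and 3 cultured libraries was analysed from 1 deposited table. The authors deposited log2 CPM values by gene symbol. The submitters' processing notes name HISAT, HTSeq, limma and mm10 without versions, and strand settings were not given in the sources used here. The values had the form of limma's voom with TMM-scaled totals: solving for reads gave whole numbers within 0.01 in 100% of values. Library totals are these recovered reads. The deposited log2 values of 13912 genes were fitted with limma 3.58.1 (R 4.3.3), two-sided, with a variance trend and Benjamini-Hochberg adjustment at 0.05. On simulated reads (13912 genes, 200 changed) the fit called 79% of 2-fold and 100% of 4-fold changes, with 7 false calls. The simulation gave all genes and libraries the same variability and changed only genes with many reads. Its figures therefore do not describe genes with few reads or the uneven spread of these libraries. Count models were not run, since the deposited unit is log2. Counts of reads within a group differed by far more than sampling noise (chi-square per degree of freedom 50.0 to 334.2 between pairs). Where a gene had 0 reads in a group its fold is a bound against 3 reads over that group; with 1 to 3 reads the ratio of CPM has a 95% Clopper-Pearson counting interval, covering counting error only. Values in every library are given for the called genes with a higher group mean of at least 4 log2 CPM whose groups did not overlap, and for a core list; of each other pathway list, the 3 called genes with the largest change are named. For 1 of the 37 genes the result is not reported here; it is included in the counts. The genes and lists were chosen with earlier results of these data known. Coordinates are those of GENCODE M21 (GRCm38, equal to mm10); exon lengths are the union over its transcripts. Promoters are RefSeq's on GRCm38.p6. Alternatives changed the trend, filter, scaling, added reads, weights and libraries.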

Additional observations from a re-analysis of the deposited data

How the results depend on the processing

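Across 15 other settings, 26 of the 30 called genes kept their direction and call wherever they were tested. The exceptions were Plaur, Procr, Serpina3m and Serpind1. With 6 libraries as deposited 27 genes were higher and 3 lower; these counts were 25 to 31 and 2 to 7 over the settings apart from the filter on a mean of at least 0 over all libraries. That filter left 15 higher, because it removes genes, and 15 of the other pathway genes higher. After quantile normalization 7 were lower. Leaving out single libraries gave 26 to 29 higher and 2 to 3 lower. For the other pathway genes lower, the count was 3 as deposited, 7 centred on the median, 11 after quantile normalization, 6 with library weights and 0 scaled to the epithelial list; leaving out single libraries gave 0 to 4, with 0 without tumour library 1 or 3. The scalings moved the median change of all genes from 0.08 to -0.14 (median centring), -0.32 (quantile) and 1.13 (epithelial list), and the share of calls that were higher from 61.1% to 48.1%, 35.2% and 97.7%; the causes were not tested.

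Some changes turned sign, 2 of them of called genes: Serpind1 had -0.38 after quantile normalization and Procr 0.16 scaled to the epithelial list. Klk8 had -0.22 centred on the median, -0.83 after quantile normalization and -0.047 to 0.045 when single libraries were left out. Klk9 had 0.41 scaled to the epithelial list and 0.048 with library weights. Serpinb6a had -0.044 centred on the median, and Serpinb9b 0.50 and 0.056 with the epithelial list and library weights. Serpini1 had -0.12 centred on the median, -3.14 after quantile normalization, which passed as lower, and -0.14 to 0.30 when single libraries were left out. Quantile normalization also made Klk9 (-4.16), Serpinb9b (-3.67) and Klk8 pass as lower. Genes with few cultured reads are limited by counting error and by spread between libraries, such as the 1, 4 and 44 reads of Serpinb2 in cultured libraries 1, 2 and 3. No paired analysis was possible because the groups share no label numbers.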
